A study of Rattus norvegicus with 24 samples.

Results

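The genes described here had their highest expression 3 days after a clip compression injury of the rat thoracic spinal cord. A gene was chosen when its mean on day 3 lay at least 1.5 above the sham mean and at least 1 above the means on days 1, 7, 14 and 56 on the log2 scale, where a difference of 1 is a 2-fold difference. Where several probe sets measured a gene, the brightest on average stood for it, and 14 well-known injury genes that meet the thresholds were set aside by name. The choice gave 146 of 14218 genes (1.03%). Because the day 3 means made the choice, every day 3 value of a gene below is a description, and tests of genes are given only for comparisons without day 3. The sham mean and the means of the other days entered the choice as well, so these tests are not free of it.

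RNA was taken from the spinal cord of female Wistar rats, in injured rats from the epicenter at T7. It was hybridised to 24 Affymetrix Rat Genome arrays, with a rat for each array. The injured rats had a T6 to T8 laminectomy and a 35 g clip closed on the cord for 1 min, and 4 rats each were sampled on days 1, 3, 7, 14 and 56. The reference was 4 sham-operated rats, which the paper describes as laminectomized and whose day of sampling the sources used here do not give. Different rats made up the days, and by the methods the arrays of a time point were pre-processed apart from the others, so that a shift of a whole day's arrays and an effect of that day cannot be told apart.

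In the first days after a spinal cord injury, blood leukocytes enter the injured tissue, and the glial and fibrotic scar has yet to form. Cells that survive such an injury switch on cytokines, their receptors and the feedback inhibitors of the same pathways, and injured neurons are known for making neuropeptides and other regeneration-associated proteins. Cells short of amino acids or with misfolded protein switch on the integrated stress response, in which the factor Atf4 drives amino acid synthesis and transport, and growing cells raise the synthesis of ribosomes and nucleotides.

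Day 3 minus sham ranged over the 146 genes between 1.51 and 8.50 with a median of 2.55, and the gap between day 3 and the next highest group was between 1.02 and 5.03 with a median of 1.59. The next highest group was day 1 for 108 genes, sham for 12, day 7 for 10, day 14 for 8 and day 56 for 8. For 117 of the 146 genes all 4 day 3 arrays lay above all 20 other arrays (80.1%, against 4.05% of all genes), which the choice by day 3 means favours. The largest gaps belonged to Il1r2, Tinagl1, Rgs16, Cxcl2 and Csrp3. Just inside the thresholds were Imp3, Rnf125, Pygo2, Armc6 and Ddx27, with gaps between 1.02 and 1.28. Just outside were Tmbim1 (gap 0.99), Twf1 (0.99), Trmt6 (0.99), Tm4sf1 (0.99) and Lurap1l, which was 1.48 above sham. Turned to each day in the same way, the thresholds chose 252 genes for day 1, 160 for day 3 (with the 14 set aside counted in), 13 for day 7, 9 for day 14 and 39 for day 56.

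**Figure D1:**
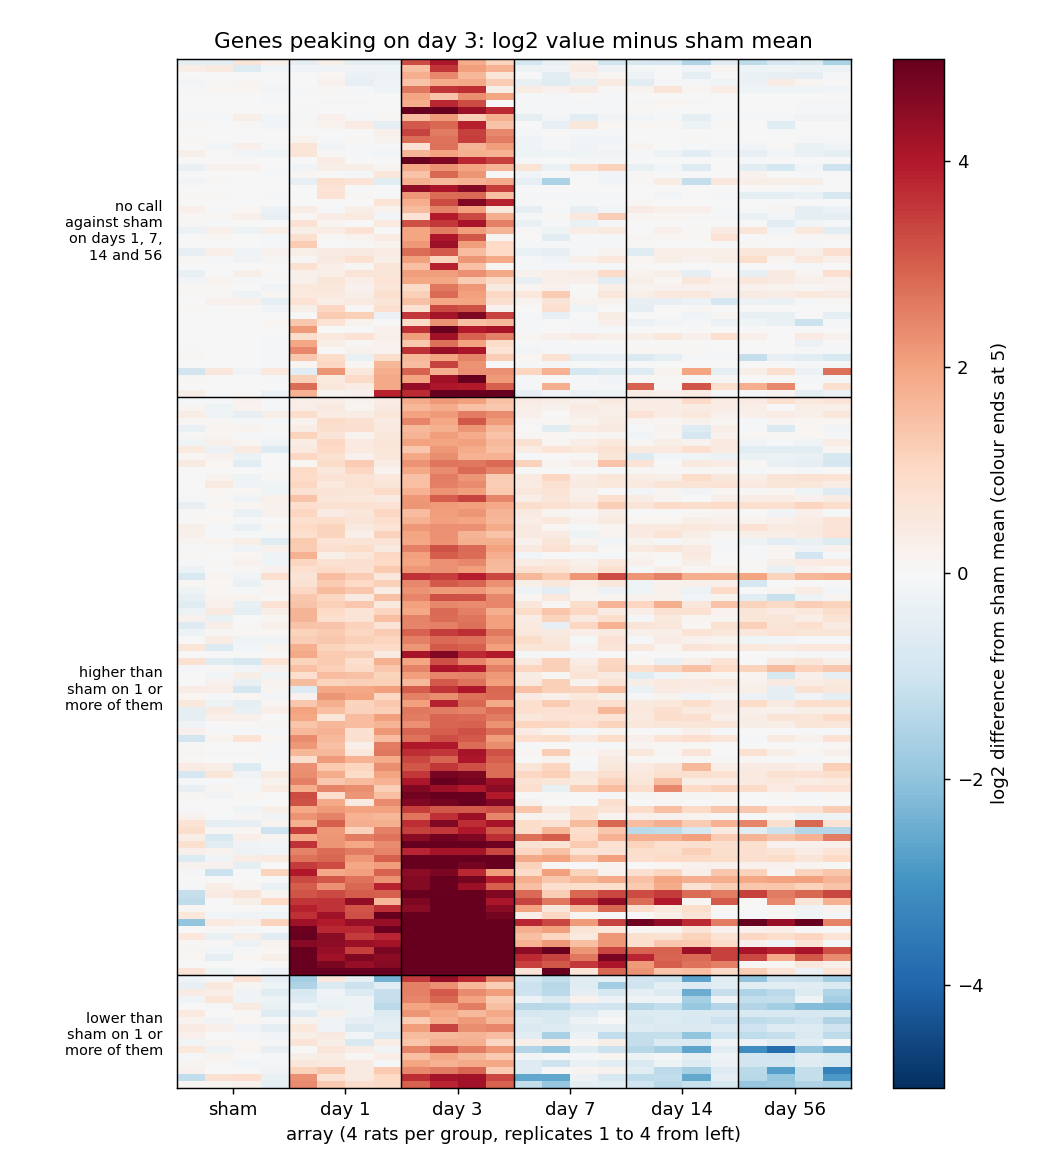
Log2 expression minus the sham mean for the 146 genes (rows) on the 24 arrays (columns, 4 rats per group), in 3 blocks by their calls against sham on days 1, 7, 14 and 56, with rows ordered within a block by the day 1 change. All blocks are red on day 3, as chosen; the upper 48 genes passed the test against sham on no other day, 82 were up-regulated on at least 1 other day and down-regulated on none, and 16 were down-regulated on at least 1.

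The 4 rats of day 3 were not alike. The median over the 146 genes was 8.34, 8.97, 8.77 and 7.77 in replicates 1 to 4, against 6.27 to 6.87 on day 1 and 4.81 to 4.95 in sham cord. The 2nd rat had the highest day 3 value in 54.1% of these genes (20.4% of all genes) and the 4th rat the lowest in 67.8% (25.1% of all genes). Without day 3 replicate 4 the thresholds took 184 genes, and without day 3 replicate 2 they took 120. The median SD of a gene over the day 3 arrays was 0.49, and 0.20 over the sham arrays.

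The day 3 arrays also stood apart in cell type markers, and all arrays carried the neuron, astrocyte and oligodendrocyte markers of spinal cord. The median of 14 fibroblast and meninges markers was 7.81, 4.11, 4.89 and 6.15 on the day 3 arrays, against 8.13 to 9.70 in sham and 7.77 to 11.78 on the other days. The median of 7 homeostatic microglia markers was 6.78 to 8.05 on day 3, below every sham array (8.53 to 9.34). Neuron markers had a median of 11.11 to 11.59 on day 3, against 6.48 to 8.92 on day 1 and 11.34 to 11.70 in sham. Their summed level on the linear scale was 48014 to 72094 on day 3, 6015 to 18600 on day 1 and 110590 to 133404 in sham. In bulk tissue, fewer cells of a type and less RNA per cell cannot be told apart, and the part of these differences in the day 3 maxima was not tested.

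**Figure D2:**
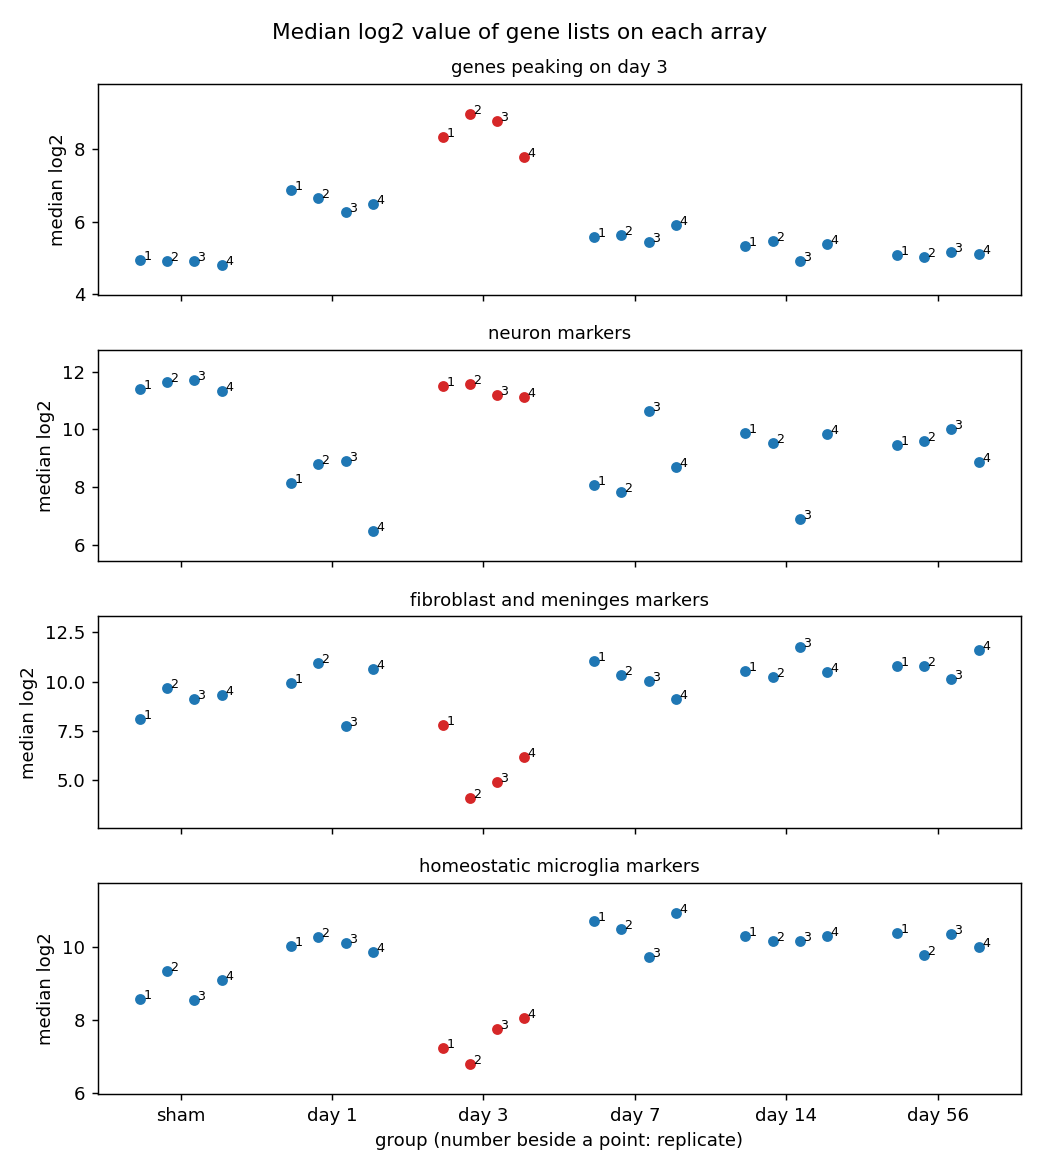
Median log2 value on each array (1 point per rat, numbered by replicate) of the 146 genes and of 3 marker lists, by group. On day 3 (red) the chosen genes lie between 7.77 and 8.97, while homeostatic microglia markers lie below all other arrays and neuron markers between 11.11 and 11.59.

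The 27 control probe sets without a target in rat had group means of 2.67 to 2.86 and set the level at which a gene is not told from background. At or below the highest of them lay 33 of the 146 genes in sham, 21 on day 1, 0 on day 3, 25 on day 7, 32 on day 14 and 30 on day 56, so the size of these genes' day 3 difference is not exact. The 3′ to 5′ difference of the beta-actin control probe sets was 1.10 to 1.21 on day 3, against 0.89 to 1.05 on day 1 and 1.29 to 1.62 in sham, so that day 3 lay above every day 1 array and below every sham array. Both differences had an exact two-sided permutation p of 0.0286, the smallest that 4 against 4 arrays allow, and 0.214 after adjustment over 15 such comparisons of control probe sets. That of Gapdh was 0.03 to 0.09 on day 3 and 0.05 to 0.12 in sham (exact p = 0.257, adjusted 0.482). Their part in the day 3 maxima was not tested.

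On the days that did not enter the choice as the peak, many of these genes differed from sham, mostly on day 1. By limma, with p-values adjusted over 20832 probe sets, 82 of the 146 genes were up-regulated on day 1 (56.2%, against 28.9% of all genes) and 1, Flt1, was down-regulated (0.685%, against 20.4%). On day 7, 45 were up-regulated (30.8%, against 23.5%) and 9 down-regulated (6.16%, against 30.0%). On day 14 the counts were 26 up-regulated (17.8%, against 15.8%) and 9 down-regulated (6.16%, against 16.3%). On day 56 they were 21 up-regulated (14.4%, against 16.1%) and 14 down-regulated (9.59%, against 15.9%). The up-regulated shares on days 14 and 56 were thus near those of all genes. All these comparisons share the 4 sham arrays, and the thresholds hold the other days below day 3, which bounds how far a chosen gene can lie above sham on them. The sham mean also entered the choice. That favours genes with low sham values, and so calls above sham over calls below it.

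The median change of the 146 genes against sham was 0.77 on day 1, 0.24 on day 7, 0.14 on day 14 and 0.01 on day 56, against 0.01, -0.05, 0.03 and -0.02 for all genes. On day 7, 47 of them were lower than on day 1 (32.2%, against 15.0% of all genes) and 1, S1pr3, was higher (0.685%, against 6.15%). The count of 47 was 8 with only the arrays of days 7 and 1 fitted and 2 by the methods' t-test after adjustment. The number down-regulated on day 7 depended on single arrays: it was 5 without sham replicate 1, 4 without day 7 replicate 1 and 3 without day 7 replicate 2. On day 14 it was 5 without day 14 replicate 3. On day 1, where Flt1 alone was down-regulated, it was 2 without sham replicate 4 and 3 without day 1 replicate 2.

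**Figure D3:**
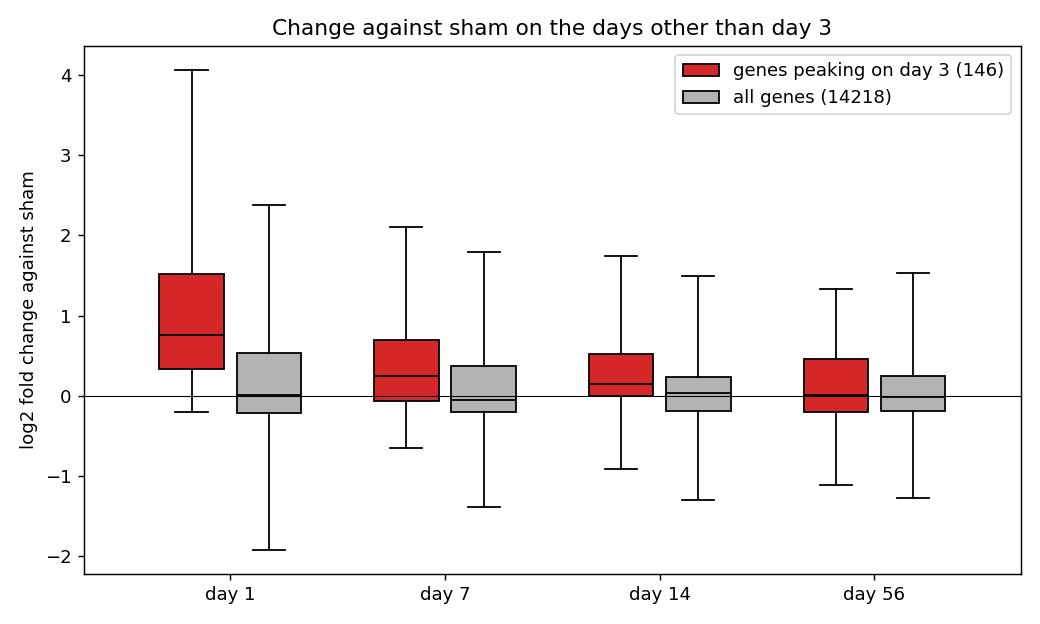
Log2 fold change against sham on days 1, 7, 14 and 56 for the 146 genes (red) and all 14218 genes (grey); boxes give quartiles and median, whiskers the 5th and 95th percentiles. The red median is 0.77 on day 1 and 0.01 on day 56.

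Over the 4 days compared with sham, 48 of the 146 genes passed the threshold on none, 35 were up-regulated on day 1 alone and 17 on all 4 days. The 17 were Adamts9, Arrdc4, Crym, Fam219b, Flnc, Gadd45g, Ifrd1, Ipo5, Lmcd1, Myc, Ppp1r15a, Procr, Rgs16, S1pr3, Sbsn, Tfpi2 and Tnfaip6. With single arrays left out in turn, 9 of the 17 kept all their calls, and Adamts9, Flnc, Ifrd1, Ipo5, Myc, Rgs16, S1pr3 and Sbsn each lost at least 1. Another 16 were down-regulated on at least 1 day, and 2 of these, Chac1 and Inhba, had been up-regulated on day 1.

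Of the process lists, secreted cytokines held 6 of the 146 genes among 29 measured (Hbegf, Il6, Il11, Clcf1, Il1b and Inhba), chemokines 4 of 26, amino acid and endoplasmic reticulum stress genes 7 of 30, and regeneration-associated genes 8 of 29. The 146 are 1.03% of all genes. The cytokine and chemokine lists did not rise as a whole on day 3. Below sham on that day lay 14 of the 29 cytokines and 13 of the 26 chemokines, against 8351 of all 14218 genes. Their median day 3 minus sham was 0.02 and 0.01 (all genes -0.04). Day 3 was the highest group for 10 and 6 of them. None of the lists holds any of the 14 genes set aside by name. The lists were chosen with earlier results of these data known, so the counts by list are a description and test nothing. Ribosome synthesis held 4 of 44, and 41 of its 44 genes had their highest group mean on day 3, against 17.8% of all genes. Day 3 was the highest group for 14 of 20 heat shock genes, 14 of 22 polyamine and nucleotide genes and 14 of 28 immediate early genes. The median of day 3 minus sham was 0.25, 1.57 and 2.16 in these lists. Of the 20 heat shock genes, 9, 11 and 9 were down-regulated on days 7, 14 and 56 (45%, 55% and 45%, against 30.0%, 16.3% and 15.9% of all genes). Up-regulated were 2, 1 and 1 (10%, 5% and 5%, against 23.5%, 15.8% and 16.1%). The lists of cell cycle (33 genes measured), glycolysis and hypoxia (28), keratins (26), interferon-stimulated (20) and prostaglandin genes (18) held 0 of the 146. In all, 54 of the 146 genes were in a process list and 92 in none, and among the cell type lists the 1 member was Flt1, in the endothelial list. The lists are not complete, so a gene in none of them can still belong to one of these processes.

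**Figure D4:**
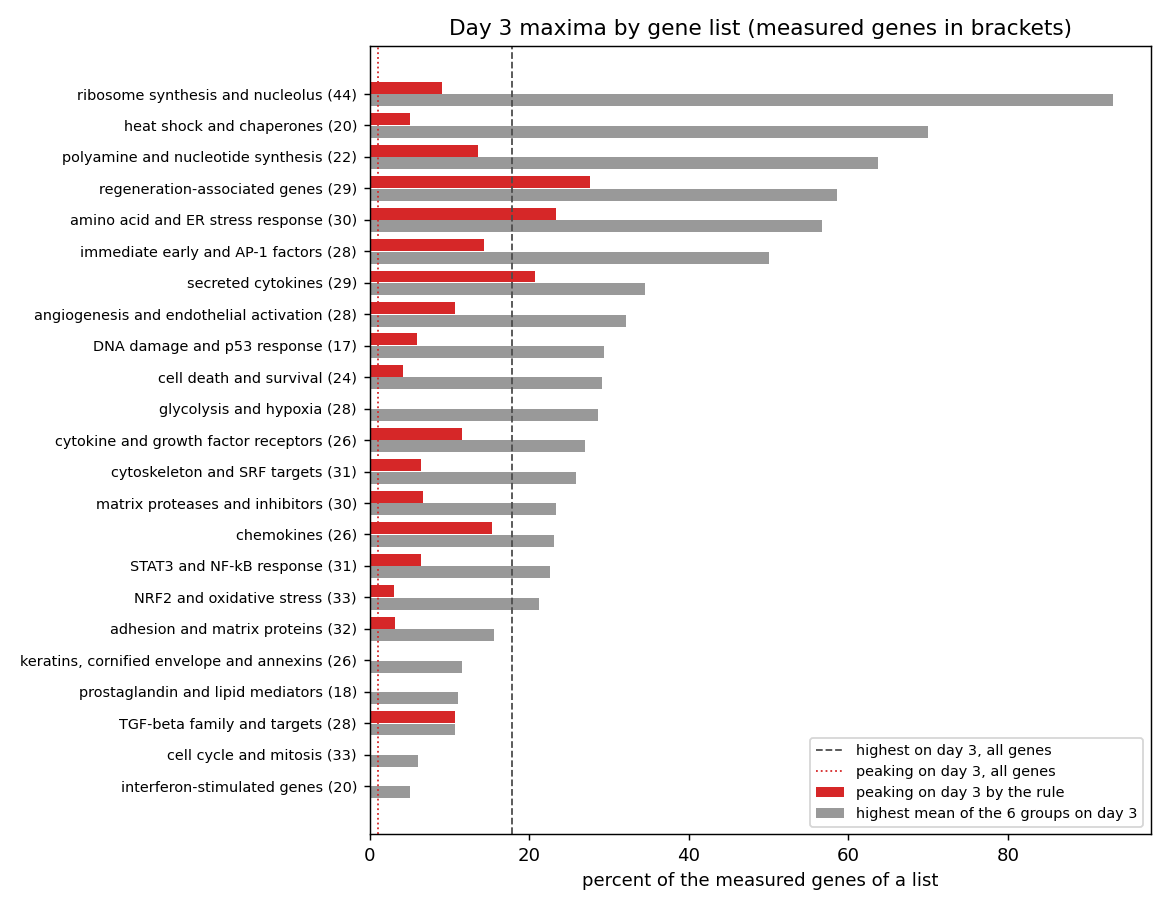
Percent of the measured genes of each process list that peaked on day 3 by the thresholds (red) or had their highest group mean there (grey), with the shares over all genes as lines (1.03% and 17.8%). Ribosome synthesis has the longest grey bar, and regeneration-associated genes the longest red bar. The lists were chosen with earlier results of these data known.

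Chemokines that draw neutrophils were among the genes with wide gaps, and of 26 chemokines measured 6 were up-regulated on day 1 (23.1%, against 28.9% of all genes) and 1 down-regulated, and 8 (30.8%, against 16.1%) and 0 on day 56. Cxcl2 had 5.76, 8.58, 6.09 and 6.21 on the day 3 arrays, against 4.23, 2.09, 2.14 and 2.31 on day 1 and 2.08 to 2.13 in sham. Its day 3 values overlapped no other array, and all arrays other than those of day 3 and day 1 replicate 1 lay at background. Cxcl1 had 7.35, 7.0, 6.93 and 5.92 on day 3, and single rats of other days reached 6.09, so the groups overlapped. It had 2.93 to 2.97 on the sham arrays, and no other day passed the test against sham (day 14 difference 1.74, adjusted p = 0.0668). Cxcl3, the third of these ligands of Cxcr2, averaged 5.93 ± 0.86 on day 3 and 4.11 ± 0.17 in sham (SD, n = 4 each). Ccl7, which draws monocytes, had 10.78, 12.23, 11.88 and 10.80 on day 3 and 10.92, 9.24, 9.83 and 10.97 on day 1, with overlap, and 2.62 to 3.56 in sham. It had the largest day 1 rise of the 146 genes (7.32, adjusted p = 2.09e-07) and was 4.94 lower on day 7 than on day 1 (adjusted p = 0.000362). On day 7 it was 2.38 above sham (adjusted p = 0.0175), and without day 7 replicate 2, the highest of the 4 rats, 1.37 (adjusted p = 0.0592).

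Beside these values, the 9 neutrophil markers summed to 3081 to 7179 on the linear scale on day 3, 1999 to 5114 on day 1 and 59.3 to 83.3 in sham, with 7 of the 9 at the level of the control probe sets on day 3. Slpi (mean 12.24 on day 3) and Csf3r (7.11) were the 2 above it, while Mmp9 (1.99), Camp (1.96) and Cxcr2 (2.43) were not. The sum was carried by Slpi, which averaged 11.33 on day 1. Csf3r went the other way, with a mean of 8.79 on day 1, so these 2 markers did not move together between days 1 and 3. The list holds none of the genes set aside by name, so this says nothing of those genes. The 14 monocyte and macrophage markers had medians of 8.47 to 8.92 on day 3, 10.21 to 10.98 on day 1 and 4.37 to 5.66 in sham. Their part in the chemokine and cytokine maxima was not tested.

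Of 29 secreted cytokines measured, 5 were up-regulated on day 1 (17.2%, against 28.9% of all genes) and 2 down-regulated (6.9%, against 20.4%). On day 56 the counts were 1 (3.45%, against 16.1%) and 2 (6.9%, against 15.9%). Il6, the founding ligand of gp130, had 6.14, 6.85, 6.55 and 3.16 on day 3, while the other 20 arrays lay between 2.37 and 4.87 with a median of 2.49. Day 3 replicate 4 was close to background (highest control probe set 3.13) and lay under day 1 replicate 1, so the groups overlapped on that rat. Il11, another gp130 ligand, had 4.48, 6.60, 4.40 and 3.31 on day 3, and 2.22 to 3.59 elsewhere. Il1b, the main interleukin-1 secreted by myeloid cells, had 3.61, 5.97, 3.55 and 2.21 on day 3 and 2.02 to 2.85 elsewhere. Replicate 4 was thus the lowest and replicate 2 the highest rat in all of these. Clcf1, which also signals through gp130, averaged 5.76 ± 0.83 on day 3 and 4.10 ± 0.24 in sham without overlap with any other array. None of the ligands Il6, Il11, Il1b and Clcf1 passed the test against sham on days 1, 7, 14 or 56.

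The widest gap of all was that of a receptor. Il1r2, the decoy receptor that binds interleukin-1 without signalling, had 7.24, 9.07, 6.36 and 5.80 on day 3, while the other 20 arrays lay between 1.98 and 2.11. On the 20 arrays it was at background, and on all 4 day 3 arrays clearly above it. Il1rap, the subunit shared by the interleukin-1 receptors, averaged 8.60 ± 0.25 on day 3 and 6.01 ± 0.42 in sham (n = 4 each). Tnfrsf12a, the receptor of the cytokine TWEAK, had 12.14, 12.51, 12.34 and 11.95 on day 3, 10.27 to 11.04 on day 1 and 5.87 to 5.92 in sham, with no overlap. It was up-regulated by 4.69 on day 1 (adjusted p = 6.28e-12), 3.54 on day 7 (5.77e-10) and 2.59 on day 14 (4.4e-08), and was 0.25 above sham on day 56 (0.449). Of 26 receptor genes measured, 14 were up-regulated on day 1 (53.8%, against 28.9% of all genes) and 2 down-regulated, and 9 (34.6%, against 16.1%) and 0 on day 56.

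The letters upstream of these genes are shown because the same kappaB motif, the binding sequence of NF-kappaB, stands close to the start in several of them. RefSeq promoters (build GRCr8, 250 bases before to 50 after the start) were matched for 120 of the 146 genes. The kappaB motif, searched on both strands, was in 12.5% of them and in 6.39% of the 11701 promoters of measured genes, and the cyclic AMP response element TGACGTCA was in 9.17% and 2.85%. The other motifs searched are given further below, and several of them were also more frequent among the 120. The 170 bases before the start are given 5′ to 3′ on the strand of the gene, with capitals for both motifs, for Cxcl1 (chr14:17479322-17479491, minus strand), Cxcl2 (chr14:17467256-17467425, minus strand, with a pair of overlapping matches), Il6 (chr4:5894576-5894745, minus strand) and Nfkbiz (chr11:58251551-58251720, plus strand).
Cxcl1: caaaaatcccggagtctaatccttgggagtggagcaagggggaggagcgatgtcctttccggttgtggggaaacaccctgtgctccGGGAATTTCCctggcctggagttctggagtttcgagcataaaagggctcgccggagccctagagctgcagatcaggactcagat
Cxcl2: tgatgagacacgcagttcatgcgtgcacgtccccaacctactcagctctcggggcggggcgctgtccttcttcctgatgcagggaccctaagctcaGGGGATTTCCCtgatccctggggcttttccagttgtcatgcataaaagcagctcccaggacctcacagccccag
Il6: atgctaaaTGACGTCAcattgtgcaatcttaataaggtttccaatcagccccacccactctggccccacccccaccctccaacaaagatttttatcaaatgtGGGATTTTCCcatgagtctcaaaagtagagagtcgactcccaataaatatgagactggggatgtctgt
Nfkbiz: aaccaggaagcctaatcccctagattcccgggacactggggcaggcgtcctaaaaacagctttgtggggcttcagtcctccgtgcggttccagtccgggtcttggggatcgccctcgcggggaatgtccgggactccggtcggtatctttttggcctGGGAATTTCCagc
In these windows the kappaB match began at position -84 in Cxcl1, -68 in Il6 and -13 in Nfkbiz, and Il6 also held the cyclic AMP response element at -162. A match is a description of the letters and was not tested for use.

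Nfkbiz, an inducible co-factor of NF-kappaB, had 7.07, 6.94, 7.53 and 6.59 on day 3, 5.08, 5.04, 3.93 and 6.05 on day 1 and 3.29 to 3.52 in sham, without overlap. It was up-regulated on day 1 (1.62, adjusted p = 0.000379) and lower on day 7 than on day 1 by 1.20 (adjusted p = 0.0214). Stfa2l2, a member of the stefin A family of cathepsin inhibitors, had 8.14, 10.72, 10.61 and 9.76 on day 3, and day 1 replicate 4 reached 8.31 against 4.11 to 4.76 in sham, so the groups overlapped on that rat. Hbegf, a ligand of the epidermal growth factor receptor, had 10.66, 12.07, 11.41 and 10.89 on day 3, 7.99 to 9.15 on day 1 and 6.53 to 6.82 in sham. All its day 3 arrays lay above every other array, and it was up-regulated on day 1 by 1.80 (adjusted p = 3.51e-05).

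Several genes with wide gaps restrain growth factor or G protein signalling and are known as feedback genes, induced by the pathways they inhibit; they are described together for that role and were not a list. Rgs16, which shortens G protein signals, had 9.79, 10.07, 9.72 and 8.30 on day 3, 4.91 to 5.74 on day 1 and 2.05 to 3.23 in sham, with no overlap. It was up-regulated by 2.70 on day 1 (adjusted p = 5.61e-07) and by 1.83 on day 7 (9.33e-05). Dusp5, a nuclear phosphatase of ERK, had 8.52, 9.12, 9.29 and 7.67 on day 3, 6.96, 4.57, 5.94 and 5.22 on day 1 and 3.53 to 3.83 in sham. It was 1.96 above sham on day 1 (adjusted p = 0.00012) and within 0.11 of sham on days 7, 14 and 56. Spred3, an inhibitor of the Ras and ERK cascade, averaged 7.60 ± 0.37 on day 3 and 4.71 ± 0.60 on day 1, against 3.49 ± 0.03 in sham (n = 4 each), and was up-regulated on day 1 by 1.22 (adjusted p = 3.41e-05). Spry2, another ERK pathway inhibitor, differed from these: it averaged 12.56 ± 0.11 on day 3 and 10.67 ± 0.13 in sham, and on day 56 was down-regulated by 0.81 (log2 change -0.81, adjusted p = 0.000314).

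Of the immediate early factors, which cells transcribe first on stimulation, 17 of 28 measured were up-regulated on day 1 (60.7%, against 28.9% of all genes) and 0 down-regulated, and 13 (46.4%, against 16.1%) and 0 on day 56. Myc, which drives growth and ribosome synthesis, had 9.56, 9.91, 9.93 and 9.10 on day 3, 8.19 to 8.55 on day 1 and 5.51 to 6.0 in sham. It was 2.57 above sham on day 1 (adjusted p = 3.69e-09) and 0.98 on day 7 (0.000336). Maff, a small Maf factor, averaged 8.10 ± 0.38 on day 3, 6.85 ± 0.29 on day 1 and 3.27 ± 0.08 in sham (n = 4 each), and was up-regulated on day 1 by 3.58 (adjusted p = 3.8e-08). Csrnp1, a nuclear protein, averaged 9.52 ± 0.46 on day 3 and 6.63 ± 0.75 on day 1, against 4.10 ± 0.58 in sham. Ier2, an immediate early nuclear protein, averaged 8.89 ± 1.19 on day 3 and 7.86 ± 0.98 on day 1, against 5.13 ± 0.90 in sham. Trib1, a pseudokinase, was 4.36 above sham on day 1 (adjusted p = 4.04e-08) and 3.04 lower on day 7 than on day 1 (adjusted p = 6.01e-05). The cyclic AMP response element lay close to the start of 3 genes of this kind and of the stress response, which are shown for the common position and letters: Ier2 (chr19:40399203-40399372, plus strand), Maff (chr7:112792617-112792786, plus strand) and Ppp1r15a (chr1:105139597-105139766, minus strand), again in build GRCr8 and over the 170 bases before the start.
Ier2: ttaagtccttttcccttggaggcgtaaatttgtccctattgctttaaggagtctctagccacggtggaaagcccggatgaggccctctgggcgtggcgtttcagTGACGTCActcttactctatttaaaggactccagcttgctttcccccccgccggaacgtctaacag
Maff: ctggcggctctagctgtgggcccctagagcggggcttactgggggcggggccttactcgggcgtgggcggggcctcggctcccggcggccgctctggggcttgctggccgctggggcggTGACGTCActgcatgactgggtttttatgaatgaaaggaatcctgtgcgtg
Ppp1r15a: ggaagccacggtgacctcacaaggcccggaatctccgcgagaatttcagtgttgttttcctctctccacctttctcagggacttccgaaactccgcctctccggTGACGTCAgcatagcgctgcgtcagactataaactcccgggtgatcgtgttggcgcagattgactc
The match began at -66 in Ier2 and Ppp1r15a and at -51 in Maff. The AP-1 motif TGANTCA, on both strands, was in 10% of the 120 promoters and 5.43% of all, and the STAT motif TTCNNNGAA in 7.5% and 6.99%. The E-box CACGTG was in 15% and 8.94%, the TATA box TATAAA in 10.8% and 5.81%, and the antioxidant response element TGACNNNGC in 19.2% and 14.4%. The heat shock element was in 0.833% and 0.453%, and the CArG box in 0.833% and 1.35%. A higher share among the chosen genes was thus not particular to kappaB or the cyclic AMP response element.

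The activin gene Inhba and genes of activin inhibitors shared the day 3 maximum, but the activin gene Inhbb did not. Inhba, whose dimer is activin A, had 8.91, 9.10, 9.44 and 7.78 on day 3, 7.68, 7.89, 6.95 and 7.82 on day 1 and 6.33 to 6.71 in sham, and day 3 replicate 4 overlapped day 1. Fst, follistatin, which binds activin and blocks it, had 3.66, 5.10, 6.49 and 5.69 on day 3, and the other 20 arrays lay between 1.78 and 2.55, all at background. Fstl3, a related activin inhibitor, averaged 5.08 ± 0.53 on day 3 and 2.13 ± 0.03 in sham (n = 4 each), with the other arrays at background too. Inhba was down-regulated on day 56 by 2.17 (log2 change -2.17, adjusted p = 0.000628), and it was 1.08 above sham on day 1 (adjusted p = 0.0477, and up to 0.11 with single arrays left out). Inhbb averaged 2.26 on day 3, 4.14 in sham and 4.52 on day 56. Of 28 genes of the TGF-beta family list, day 3 was the highest group for Inhba, Fst and Fstl3 alone. Genes set aside by name were not in that list and are not counted.

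Neuropeptides and other genes that injured neurons express made up a further group, chosen on arrays that also differed in neuron markers, as given above. Tac1, the precursor of substance P, had 8.50, 9.40, 8.73 and 7.50 on day 3, 3.30, 5.56, 4.61 and 2.63 on day 1 and 4.81, 4.90, 5.74 and 4.59 in sham, with no overlap. Its level on days 1, 7 and 14 did not pass the test against sham (differences -0.98, -0.79 and -1.32), and on day 56 it was 1.47 lower (log2 change -1.47, adjusted p = 0.0471), a call lost with each of the 8 arrays left out in turn. Gal, galanin, had 11.08, 11.57, 11.58 and 10.72 on day 3, 7.82 to 9.68 on day 1 and 6.14, 8.15, 8.24 and 7.02 in sham. All its day 3 arrays were above all others, and on day 7 it was 2.67 lower than on day 1 (log2 change -2.67, adjusted p = 0.00699). Crh, corticotropin-releasing hormone, had 4.22, 6.11, 5.60 and 2.38 on day 3, against 2.26 to 2.44 on the other 20 arrays, so that replicate 4 was at background. Vip averaged 5.28 ± 1.57 on day 3 and 2.74 ± 0.11 in sham, and Adcyap1, the precursor of the peptide PACAP, 8.08 ± 0.67 and 5.93 ± 0.42. Pdyn, prodynorphin, averaged 8.09 ± 1.46 on day 3 and 5.64 ± 0.29 in sham, with overlap. Bdnf, a neurotrophin, averaged 5.35 ± 0.93 on day 3 and 3.12 ± 0.50 in sham without overlap (n = 4 each). None of Crh, Vip, Pdyn and Bdnf passed the test against sham on days 1, 7, 14 or 56.

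Sox11 and Gadd45g of the same list had a different course. Sox11, a factor of axon regeneration, averaged 5.87 ± 0.86 on day 3 and was up-regulated on day 1 by 2.04 (adjusted p = 7.78e-06), and it was 1.70 lower on day 7 than on day 1 (adjusted p = 0.000859). Gadd45g, a stress sensor, averaged 9.34 ± 0.64 on day 3 and 4.66 ± 0.01 in sham, and was 2.85 above sham on day 1 (adjusted p = 2.45e-08) and still 1.92 above it on day 56 (8.56e-06). Of the 29 genes in the list, 13 were up-regulated on day 1 (44.8%, against 28.9% of all genes) and 5 down-regulated (17.2%, against 20.4%), and 9 (31%, against 16.1%) and 6 (20.7%, against 15.9%) on day 56. The list did not move as one on day 3, which was the highest group for 17 of the 29, while 7 lay below sham.

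**Figure D5:**
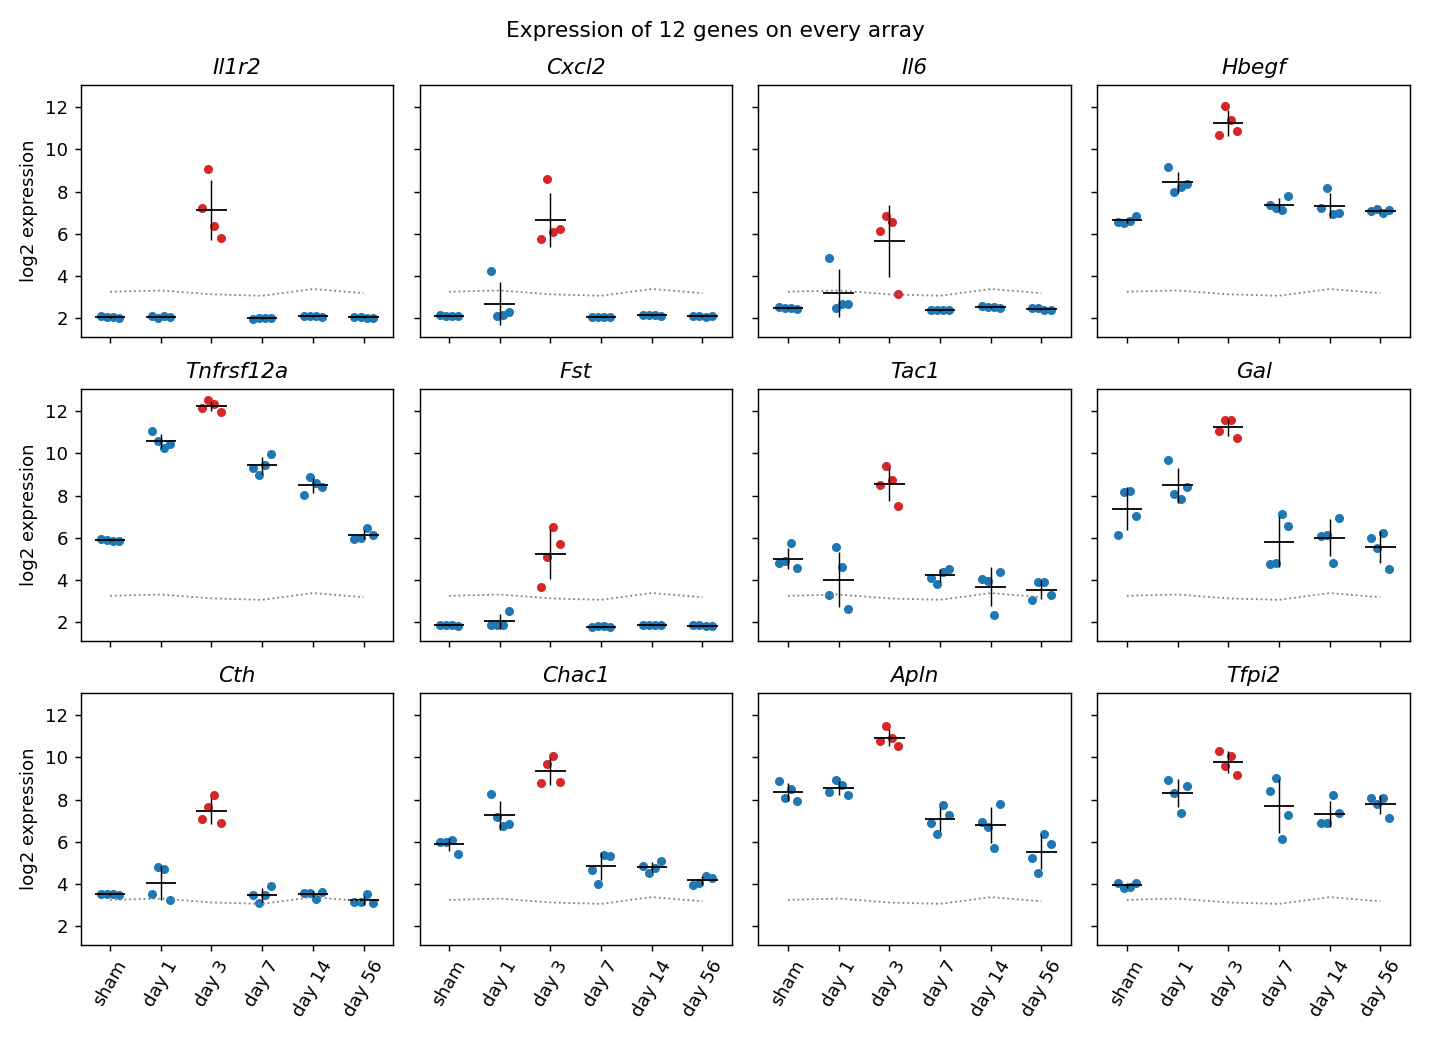
Log2 expression of 12 genes on every array by group (points: 4 rats; bars: mean and SD; dotted line: the highest control probe set without a target in each group). Il1r2 and Fst leave the background on day 3 alone, Tnfrsf12a has a lower mean on each later day, and Chac1 and Apln end below sham on day 56.

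Genes of the amino acid and endoplasmic reticulum stress response that peaked on day 3 included Atf4 itself, their main transcription factor. Atf4 had 12.20, 12.51, 12.39 and 11.82 on day 3, 10.52 to 10.73 on day 1 and 10.23 to 10.56 in sham, with no overlap. Cth, the enzyme that makes cysteine from cystathionine, had 7.08, 7.68, 8.21 and 6.89 on day 3, 3.52, 4.79, 4.73 and 3.24 on day 1 and 3.50 to 3.55 in sham, and passed the test against sham on no other day. Chac1, which degrades glutathione, had 8.81, 9.67, 10.09 and 8.83 on day 3, 8.25, 7.18, 6.77 and 6.83 on day 1 and 5.40 to 6.10 in sham. It was up-regulated on day 1 (1.38, adjusted p = 0.0023) and down-regulated on day 56 (log2 change -1.70, adjusted p = 0.000755). On days 7 and 14 it was also lower than in sham (-1.03, adjusted p = 0.0216, and -1.06, 0.0241), calls that were lost with 4 and 5 of the 8 arrays left out in turn.

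Asns, asparagine synthetase, averaged 9.54 ± 0.30 on day 3 and 7.93 ± 0.12 in sham (n = 4 each) and passed on no other day. Mthfd2, of mitochondrial folate metabolism, averaged 5.56 ± 0.52 on day 3 and 3.16 ± 0.07 in sham, and Sesn2, a leucine-sensing inhibitor of mTORC1, 9.80 ± 0.60 and 7.92 ± 0.18. Ppp1r15a, which reverses the translational block of this response, averaged 8.15 ± 0.88 on day 3 and was up-regulated on all 4 other days, by 1.24 on day 1 (adjusted p = 0.00119) and 1.30 on day 56 (0.00156). Day 3 was the highest group for 17 of the 30 genes of the list, and 11 were up-regulated on day 1 (36.7%, against 28.9% of all genes) and 7 down-regulated (23.3%, against 20.4%). The list did not move as one on day 3, where 8 of the 30 lay below sham. Of these, picked by their values, Nupr1, a stress-induced nuclear protein, averaged 4.36 on day 3 and 7.47 in sham, and Ddit4, an inhibitor of mTORC1, 9.71 and 10.86. The serine synthesis enzymes Psat1 (11.80 on day 3 and 12.88 in sham) and Phgdh (9.94 and 10.93) were lower as well.

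Genes of ribosome synthesis had their highest level on day 3 almost throughout the list, but with small gaps. The median of day 3 minus sham over its 44 genes was 1.38 (all genes -0.04), and 79.5% of them lay at least 1 above sham on day 3 (all genes 11%), while the median gap to the next group was 0.60, short of the threshold for most. On day 1, 31 of the 44 were up-regulated (70.5%, against 28.9% of all genes) and 0 down-regulated, and on day 56, 7 (15.9%, against 16.1%) and 1. Polr1e, a subunit of RNA polymerase I, had 5.66, 6.50, 6.88 and 5.94 on day 3, 4.90, 4.11, 4.01 and 3.94 on day 1 and 3.30 to 3.75 in sham, without overlap, and was up-regulated on day 1 by 0.75 (adjusted p = 0.00876), a call lost by the methods' t-test after adjustment. Rrp9, a protein of the U3 particle that processes ribosomal RNA, averaged 7.19 ± 0.52 on day 3 and was 1.21 above sham on day 1 (adjusted p = 0.000534). Noc2l, a nucleolar protein, averaged 8.16 ± 0.32 on day 3 and was 1.15 above sham on day 1 (adjusted p = 0.000237).

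Of 22 polyamine and nucleotide genes measured, 16 were up-regulated on day 1 (72.7%, against 28.9% of all genes) and 3 down-regulated (13.6%, against 20.4%). Uck2, the uridine and cytidine kinase of pyrimidine salvage, averaged 6.07 ± 0.37 on day 3 and 3.67 ± 0.03 in sham. Ctps1, CTP synthase, averaged 11.36 ± 0.26 on day 3 and 9.76 ± 0.14 in sham, and was down-regulated on day 56 (log2 change -0.80, adjusted p = 6.66e-05). Gart, of purine synthesis, averaged 9.31 ± 0.64 on day 3 and was up-regulated on day 1 by 1.27 (adjusted p = 0.000203). Outside the lists, and picked after their values were seen, were both subunits of a transfer RNA methyltransferase: Mettl1 averaged 9.07 ± 0.25 on day 3 and 6.81 ± 0.38 in sham, and Wdr4 5.63 ± 1.67 and 3.30 ± 0.08, with overlap for Wdr4.

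The angiogenesis and endothelial list held 3 of the 146 genes among 28 measured (Apln, Flt1 and Procr), and 11 of the 28 were up-regulated on day 1 (39.3%, against 28.9% of all genes) and 5 down-regulated (17.9%, against 20.4%), and 12 (42.9%, against 16.1%) and 2 on day 56. Apln, apelin, a peptide made by sprouting endothelium and by neurons, had 10.79, 11.50, 10.92 and 10.54 on day 3, 8.20 to 8.95 on day 1 and 8.90, 8.08, 8.49 and 7.93 in sham, without overlap. It was then down-regulated by 1.56 on day 14 (log2 change -1.56, adjusted p = 0.007) and by 2.85 on day 56 (-2.85, 3.63e-05), which was the largest fall of the 146 genes on that day. Flt1, receptor 1 of vascular endothelial growth factor, had 8.50, 8.27, 7.63 and 7.19 on day 3, 4.47, 5.29, 4.90 and 5.43 on day 1 and 5.55, 6.48, 6.12 and 5.75 in sham. It was down-regulated on day 1 (-0.95, adjusted p = 0.00855) and day 7 (-1.20, 0.0022), and no array of days 1, 7, 14 or 56 lay above the lowest sham array. The day 1 call was lost by the methods' t-test after adjustment. Nos3, the endothelial nitric oxide synthase, had 5.37, 5.31, 6.04 and 5.15 on day 3, and the other 20 arrays lay between 2.43 and 2.78, at background. Beside these, the 11 endothelial markers, Flt1 included, had a median of 6.92 to 7.88 on day 3, 6.75 to 7.63 on day 1 and 5.88 to 6.55 in sham, and a summed linear level of 1897 to 4079 on day 3 and 3164 to 3617 in sham. Their part in these maxima was not tested.

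Procr, the endothelial receptor of protein C, averaged 11.37 ± 0.17 on day 3, 10.19 ± 0.08 on day 1 and 8.17 ± 0.21 in sham (n = 4 each) and was up-regulated on every other day, by 2.02 on day 1 (adjusted p = 3.1e-08) and 1.04 on day 56 (0.000154). Ecscr, a surface protein of endothelial cells, averaged 9.39 ± 0.54 on day 3 and was 4.06 above sham on day 1 (adjusted p = 2.2e-08) and 3.71 lower on day 7 than on day 1 (adjusted p = 1.21e-06). Sox7, an endothelial transcription factor, averaged 11.23 ± 0.26 on day 3 and 6.89 ± 0.33 in sham. Tinagl1, a matrix glycoprotein, had 7.30, 6.59, 5.69 and 5.33 on day 3, and the other 20 arrays, at background, lay between 1.80 and 2.29.

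Of 30 matrix proteases and inhibitors measured, 17 were up-regulated on day 1 (56.7%, against 28.9% of all genes) and 1 down-regulated, and 16 (53.3%, against 16.1%) and 1 on day 56. Tfpi2, a matrix-bound inhibitor of serine proteases, averaged 9.78 ± 0.51 on day 3 and 3.94 ± 0.13 in sham, and was above sham by 4.38 on day 1 (adjusted p = 3.98e-07) and 3.83 on day 56 (7.37e-06). Tnfaip6, a hyaluronan-binding protein, had 10.77, 11.17, 11.65 and 11.64 on day 3, 10.72, 9.75, 11.14 and 7.87 on day 56, and 3.40, 5.90, 5.73 and 6.55 in sham. Day 3 and day 56 overlapped, and the day 56 change (4.48, adjusted p = 4.54e-05) was the largest of the 146 genes. Adamts9, a protease of proteoglycans, averaged 7.78 ± 0.86 on day 3 and was up-regulated on day 1 by 3.01 (adjusted p = 8.22e-07) and on day 56 by 1.33 (0.00679). The fibroblast and meninges markers were lower on the day 3 arrays than in sham, as given above.

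Of 31 cytoskeletal genes measured, 24 were up-regulated on day 1 (77.4%, against 28.9% of all genes) and 0 down-regulated, and 14 (45.2%, against 16.1%) and 0 on day 56. Of the skeletal muscle markers, 10 of 15 lay at the control level on day 3 and in sham. Their summed linear level was 19384 to 21848 on day 3, 9569 to 11878 on day 1 and 22237 to 30775 in sham. That sum was carried by Myh1 (mean 14.28 on day 3, 13.34 on day 1 and 14.51 in sham) and says little of the other markers. Their part in the maxima of the genes below was not tested. Csrp3, a LIM protein best known from striated muscle, had 6.54, 6.21, 6.73 and 5.56 on day 3, and the other 20 arrays lay between 2.08 and 2.81, at background. Sgca, alpha-sarcoglycan, averaged 9.21 ± 0.92 on day 3 and 6.26 ± 0.04 in sham without overlap. Flnc, filamin C, averaged 10.83 ± 0.18 on day 3 and was 1.11 above sham on day 1 (adjusted p = 0.00774). Lmcd1, a LIM protein, averaged 9.44 ± 0.57 on day 3 and was up-regulated on every other day, by 3.13 on day 1 (adjusted p = 3.6e-06) and 3.06 on day 56 (1.66e-05). Hspb8, a small heat shock protein of chaperone-assisted autophagy, averaged 11.61 ± 0.30 on day 3 and was 1.17 above sham on day 1 (adjusted p = 0.00677).

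Crym, which binds thyroid hormone, averaged 11.29 ± 0.37 on day 3 and 4.24 ± 0.35 in sham (n = 4 each). It was up-regulated on every other day, by 4.58 on day 1 (adjusted p = 1.35e-08) and 2.68 on day 56 (2.07e-05). Nkain1, which interacts with the sodium pump, was 4.37 above sham on day 1 (adjusted p = 4.61e-11) and 0.16 above it on day 56 (0.667). Txnrd1, the thioredoxin reductase of the NRF2 list, averaged 10.83 ± 0.35 on day 3 and was 0.91 above sham on day 1 (adjusted p = 2.18e-05). S1pr3, a receptor of sphingosine 1-phosphate, averaged 10.70 ± 0.25 on day 3, and its next levels came late: it was above sham by 1.01 on day 1 (adjusted p = 0.0286, lost with 4 of 8 arrays left out in turn and by the methods' t-test), 2.10 on day 7 (0.00014), 2.07 on day 14 (0.000214) and 1.63 on day 56 (0.00179).

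Of the 14 genes down-regulated on day 56, 5 more are given here, picked after their values were seen or by the size of that change. Aacs, which activates acetoacetate for lipid synthesis, averaged 7.24 ± 0.44 on day 3 and 5.20 ± 0.33 in sham, and was down-regulated on day 7 (-1.17, adjusted p = 0.00131), day 14 (-1.51, 0.000178) and day 56 (-1.89, 1.91e-05). Pcyt2, of phosphatidylethanolamine synthesis, averaged 9.96 ± 0.35 on day 3 and 8.24 ± 0.17 in sham, and was down-regulated on day 56 (-1.24, adjusted p = 4.13e-05). Mfsd2a, the lipid transporter of the blood-brain barrier, averaged 4.46 ± 0.25 on day 3 and 2.55 ± 0.45 in sham. That sham mean was at background (highest control probe set 3.25 in sham). The lower value of Mfsd2a on day 56 (log2 change -0.78) therefore cannot be read as lower expression. Pim3, a serine/threonine kinase, averaged 9.90 ± 0.06 on day 3 and 8.29 ± 0.18 in sham, and was down-regulated on day 14 (-1.34, adjusted p = 0.000815) and day 56 (-1.11, 0.00374). Noct, a circadian phosphatase, averaged 9.31 ± 0.42 on day 3 and 6.80 ± 0.48 in sham, and was down-regulated on day 7 (-0.91, adjusted p = 0.0452, lost with 6 of 8 arrays left out in turn), day 14 (-1.20, 0.0163, lost with 3 of 8) and day 56 (-1.26, 0.0118, kept with each of the 8 left out).

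Other probe sets of the same genes were measured on the same RNA. There were 56 for 42 of the 146 genes, and day 3 was the highest group in 36, at least 0.5 above the next group in 29, and met the thresholds in 14. Day 3 was highest in all 19 with a group mean of at least 5, and in 17 of the 37 dimmer ones. The dim one of Tnfaip6 averaged 4.42 on day 3, 2.75 on day 56 and 2.44 in sham, without the large day 56 rise given above. That of Adamts9 was dim and not highest on day 3, and those of Flt1 had gaps of 0.59 and 1.26.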

How the data were processed

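Total RNA of each rat was labelled and hybridised by the authors, who made the deposited values with affy 1.12.2 and GCRMA. The deposited numbers are on the log2 scale, 1 per probe set and array, and the methods pre-processed each time point on its own. No further normalization was added here. Of 31099 probe sets, 20832 carry 1 gene symbol and gave 14218 genes. The members and the gene lists were chosen with earlier results of these data known. In R 4.3.3, limma 3.58.1 was fitted over all 24 arrays with 1 factor per group, and p-values were adjusted by Benjamini-Hochberg within each contrast over the single-symbol probe sets, with a threshold of 0.05. Samples were taken as independent rats. Promoters were read from RefSeq in Python 3.11.15 with pandas 2.3.3, and figures were drawn with matplotlib 3.10.9.

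Genes were named as the 20 with the widest gap to the next group, up to 4 members of each list, the 5 on each side of the thresholds, the 5 largest changes in each direction on days 1 and 56, and members with a printed promoter. Named outside that rule, after their values were seen, were Il1b, Spry2, Adcyap1, Pdyn, Sox11, Atf4, Asns, Ecscr, Sox7, Sgca, Noct, Pcyt2, Mfsd2a, S1pr3, Mettl1, Wdr4, Nupr1, Ddit4, Psat1 and Phgdh, and the genes of a complete count. Inhbb was also named outside the rule, as a gene of the lists that went the other way. The fit and the rule were checked on simulated data. The alternatives were a fit of the 2 groups compared, the methods' t-test, quantile normalization, median centring, a filter on dim probe sets, averaging a gene's probe sets, other thresholds, a replicate block and fits without single arrays. The precision of an array is limited by its background, given with the control probe sets.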

Additional observations from a re-analysis of the deposited data

Results flagged for a closer look

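Among 174 groups of 4 arrays, for the 29 genes given with their values on single arrays, 16 had 1 array far from the others of its group. Chance flags about 1 in 20 such groups, and many of these values lie close to background, where the spread of the others is small. Day 1 replicate 1 stood above the other day 1 rats in Cxcl2 (4.23, others 2.09 to 2.31), Il6 (4.87, others 2.47 to 2.69) and Il11 (3.59, others 2.29 to 2.49). Day 7 replicate 2 stood above the others in Cxcl1 (4.78, others 2.89 to 2.91) and Nfkbiz (4.63, others 3.51 to 3.64). Day 1 replicate 2 stood above the others in Tinagl1 (2.29, others 1.94) and Csrp3 (2.81, others 2.13 to 2.14), and day 1 replicate 4 in Fst (2.55, others 1.87 to 1.88). On day 3, replicate 2 stood above the others in Cxcl2 (8.58, others 5.76 to 6.21). Atf4 was high in sham replicate 3 (10.56, others 10.23 to 10.29) and in day 14 replicate 3 (11.31, others 10.70 to 10.72). Cth was high in day 56 replicate 3 (3.55, others 3.10 to 3.15). Low values were those of Chac1 in sham replicate 4 (5.40, others 6.0 to 6.10), Polr1e in day 56 replicate 3 (3.72, others 3.85 to 3.86), Flt1 in day 56 replicate 4 (5.27, others 5.39 to 5.40) and Nos3 in day 14 replicate 4 (2.58, others 2.63 to 2.64).

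A pair of genes passed the limma test against sham in opposite directions on different days, and the difference between those days passed it too. Inhba was 1.08 above sham on day 1 and changed by -2.17 on day 56, so that day 56 minus day 1 was -3.25 (adjusted p = 1.44e-05). Chac1 was 1.38 above sham on day 1, and its differences from day 1 were -2.41 on day 7 (adjusted p = 0.000177), -2.44 on day 14 (4.32e-05) and -3.08 on day 56 (2.37e-06).

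Outside the genes compared, 35 of 9780 probe sets with no gene symbol and 2 of 436 with several symbols met the same thresholds for a day 3 maximum.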

How the results depend on the processing

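The number of genes peaking on day 3 was 146. It was 66 with thresholds of 2 above sham and 1.5 above each other day, and 424 with 1 and 0.5. Leaving out 1 array at a time gave 120 to 184, quantile normalization 139 (136 shared with the 146) and median centring 165 (146 shared).

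Several counts over the 146 genes depended on the fit. By the methods' t-test after Benjamini-Hochberg adjustment, 0 were lower than sham on day 1 and 15 on day 7, and 5 on day 14. At its unadjusted threshold, 22 were lower on day 7 and 15 on day 14, 43 were higher on day 14 and 37 on day 56, and 27 were lower on day 56. For day 7 against day 1, the number lower was 8 with only these groups fitted, 2 by the t-test after adjustment and 30 without the 3 arrays removed together (day 7 replicates 2 and 3 and day 14 replicate 3, a choice made after the data were seen). The number higher was 0 with only these groups fitted, by the adjusted t-test, with quantile normalization and with the replicate block, and 2 without those 3 arrays. The fit of 2 groups estimates the spread from fewer arrays, and the cause of the other differences was not tested.

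Leaving out single arrays gave 78 to 82 genes higher and 1 to 3 lower on day 1, 30 to 41 and 3 to 10 on day 7, 22 to 25 and 5 to 10 on day 14, and 17 to 21 and 10 to 17 on day 56, and for day 7 against day 1, 0 to 2 higher and 33 to 53 lower. Of 131 calls against sham for genes named with their values, 94 held with every single array left out. Over the values of single genes under all alternatives, 4971 kept their direction and side of the threshold, 214 lost a call, 106 gained one, and 101 without a call changed sign. With the replicate block, 82 genes were higher on day 1 and 1 lower, 42 and 8 on day 7, 27 and 8 on day 14, and 20 and 15 on day 56, and 45 were lower on day 7 than on day 1. The replicate numbers do not pair the rats: same-numbered arrays had a median correlation of deviations of 0.0104 (-0.711 to 0.479), and 6 of 24 arrays were closest to their own number. Differences of dim genes are limited by the background of the arrays, and 4 rats per group limit the precision of all values.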

Other observations

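The thresholds turned upside down, at least 1.5 below sham and at least 1 below each other day on the log2 scale, chose 246 genes for day 1, 115 for day 3, 0 for day 7, 1 for day 14 and 9 for day 56. By these thresholds the day 3 arrays held both more maxima and more minima than those of days 7, 14 and 56, and fewer of both than those of day 1.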
